A study of Mus musculus with 6 samples.

Results

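The genes of serine, folate and nucleotide synthesis were examined in mouse double negative T cells (DNT cells) cultured without or with IL-33. The set held 32 genes chosen by name, out of 26128 genes listed in the deposited counts, and all 32 were among the 14671 genes with enough counts for a test. It covered the enzymes that make serine, move carbon units on folate, build purines and pyrimidines, turn ribonucleotides into deoxynucleotides, and recycle free bases and nucleosides. These enzymes feed each other. The serine pathway draws a glycolytic intermediate through Phgdh, Psat1 and Psph, serine gives its side-chain carbon to folate in the mitochondria or the cytosol, and folate then carries that carbon into the purine ring and into thymidylate. Ribonucleotide reductase and the thymidylate enzymes supply the precursors of DNA, and in most cells their transcripts are high while DNA is being copied. Activated T cells raise these pathways as they enter division, and drugs that block several of the enzymes are used to restrain lymphocytes.

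The cells came from adult C57BL/6 mice, from the spleen per the labels and from spleens and lymph nodes per the study's methods. CD4+CD25- T cells had been converted in culture with mature dendritic cells of DBA/2 mice and IL-2, and DNT cells had been sorted as CD3+NK1.1-CD4-CD8-. Both groups then spent 48 h in culture on anti-CD3/CD28 beads, which stimulate the T cell receptor and its costimulator, so no unstimulated sample entered the comparison. The control group of 3 libraries had no IL-33, and the other group of 3 libraries had IL-33 at 50 ng/ml. Whether replicates were separate mice, conversions or wells is not given in the sources used here, so the p-values measure the spread between these libraries, which may be technical.

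The libraries held 20256342 to 22336050 counts, and a total of 3 counts in a library, taken as the limit of detection, came to 0.134 to 0.148 CPM, the counts of a gene scaled to the size of its library. All 9 T cell markers were detected, with a summed level of 3120 to 3240 CPM without IL-33 and 3210 to 3320 CPM with it. At an adjusted p under 0.05, 3 were lower with IL-33, Cd5 (log2 fold change -0.43), Lck (-0.17) and Cd2 (-0.16). Cd28 (0.14) and Cd3g (0.13) were higher, and 4 passed in neither direction. Cd4 stood at 0.934 ± 0.183 CPM without IL-33 and 0.373 ± 0.143 CPM with it (SD, n = 3 libraries, as for all values below). Transcripts of 2 markers used to exclude cells in the sort were present, with Cd8a at 545 ± 13.6 CPM and Klrb1c, which encodes NK1.1, at 33.5 ± 2.57 CPM without IL-33. With IL-33 they stood at 400 ± 9.15 and 25.6 ± 1.16 CPM. Cd8b1, which encodes the other chain of CD8, was higher with IL-33, at 9.69 ± 1.65 and 16.3 ± 2.07 CPM (log2 fold change 0.75, adjusted p = 6.16e-08), so that of these 4 genes 3 were lower and 1 was higher. The 10 dendritic and myeloid markers found in the table summed to 88.0 to 90.7 CPM without IL-33 and 65.7 to 70.1 CPM with it. The lower sum came mostly from Itgax (54.6 ± 2.07 and 25.98 ± 1.59 CPM), which activated T cells also express. The list did not move one way, since of the 5 tested Itgax and Cd74 were lower, Itgam (2.62 ± 0.0742 and 4.83 ± 0.844 CPM) and H2-Ab1 (24.8 ± 1.96 and 30.3 ± 1.0 CPM) were higher, and the median log2 fold change was 0.29. Flt3, Csf1r, Adgre1, Lyz2 and H2-Aa had 0 to 13 counts in every library. The 4 B cell markers found summed to 15.4 to 16.7 and 16.4 to 21.6 CPM. The 7 mast cell and basophil markers found summed to 16.3 to 22.2 and 11.7 to 14.9 CPM. Of the 3 of these tested, Cpa3 was lower (10.9 ± 2.04 and 7.1 ± 0.615 CPM). Mcpt8 (log2 fold change -0.43) and Hdc (0.22) passed in neither direction. Gata2, Ms4a2 and Tpsb2, too low to be tested, had 1 to 14 counts in the control libraries and 0 in those with IL-33. Fcer1a, not tested either, had 5 to 12 and 0 to 5 counts. The part of these other cell types in the results below was not tested, and in bulk RNA fewer cells of a type and less RNA per cell cannot be told apart.

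The 32 genes changed little in size, and the changes that passed the test were mostly decreases. With IL-33, 11 genes (34.4%) were lower and 3 (9.38%) were higher at an adjusted p under 0.05 (quasi-likelihood test of edgeR, adjusted by Benjamini-Hochberg over every gene tested), and 18 passed in neither direction. Over all genes tested, 13.9% were lower and 13.6% were higher by the same rule. The median log2 fold change, with IL-33 against without, was -0.12 over the 32 genes and -6e-04 over all genes tested. A fold change of 1.5 (0.585 on the log2 scale) together with the adjusted p was reached by 1 gene, Rrm2, which was lower, and by 0 genes in the higher direction, where 2.39% and 2.47% of all genes tested passed as lower and as higher. The count of 0 was also 0 at an unadjusted p under 0.05 and with DESeq2 and limma-voom. The libraries with IL-33 lay wholly below the controls in 11 genes and wholly above them in 3, against 19.5% and 19.4% of all genes tested. The summed level of the 32 genes ran from 2450 to 2550 CPM without IL-33 and from 2300 to 2330 CPM with it, a decrease by 7.82%.

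**Figure D1:**
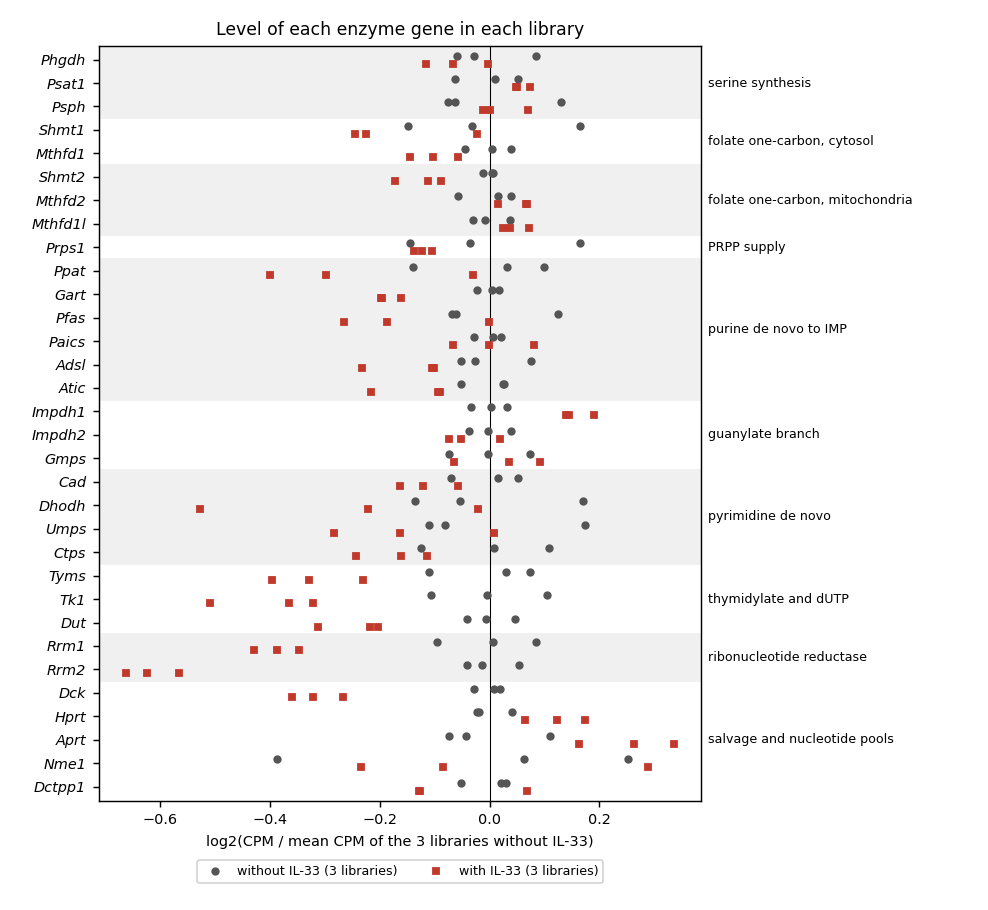
Level of each of the 32 enzyme genes in each library, as the log2 of its CPM over the mean CPM of the 3 libraries without IL-33 (x axis), with genes in rows grouped by role. Circles are the 3 libraries without IL-33 and squares the 3 with IL-33. For Rrm2, Rrm1, Tk1, Tyms, Dut and Dck every square lies to the left of every circle, as it does for Mthfd1, Shmt2, Gart, Adsl and Atic. For Impdh1, Hprt and Aprt every square lies to the right.

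The 6 lowest log2 fold changes belonged to enzymes that supply deoxynucleotides for DNA, Rrm2, Tk1, Rrm1, Tyms, Dck and Dut. In this grouping, made after their values had been seen, all 6 were lower with groups that did not overlap, and their median log2 fold change was -0.35. Their summed level was 680 to 733 CPM without IL-33 and 515 to 535 CPM with it, a decrease by 25.4%. Among the other 26 genes, 5 (19.2%) were lower and 3 (11.5%) were higher, with a median of -0.08. Over all genes tested, these shares were 13.9% and 13.6%. The 6 were set apart with their values known, so their contrast with the other 26 follows from that choice and tests nothing. The 26 include Dhodh (-0.2424), which lay next to Dut (-0.2435), and Dctpp1 (-0.06), which also acts on a deoxynucleotide. In the 18 genes that passed in neither direction, the 95% intervals of the log2 fold change ran from -0.50 to 0.31, and all 18 intervals lay within a fold of 1.5 either way.

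**Figure D2:**
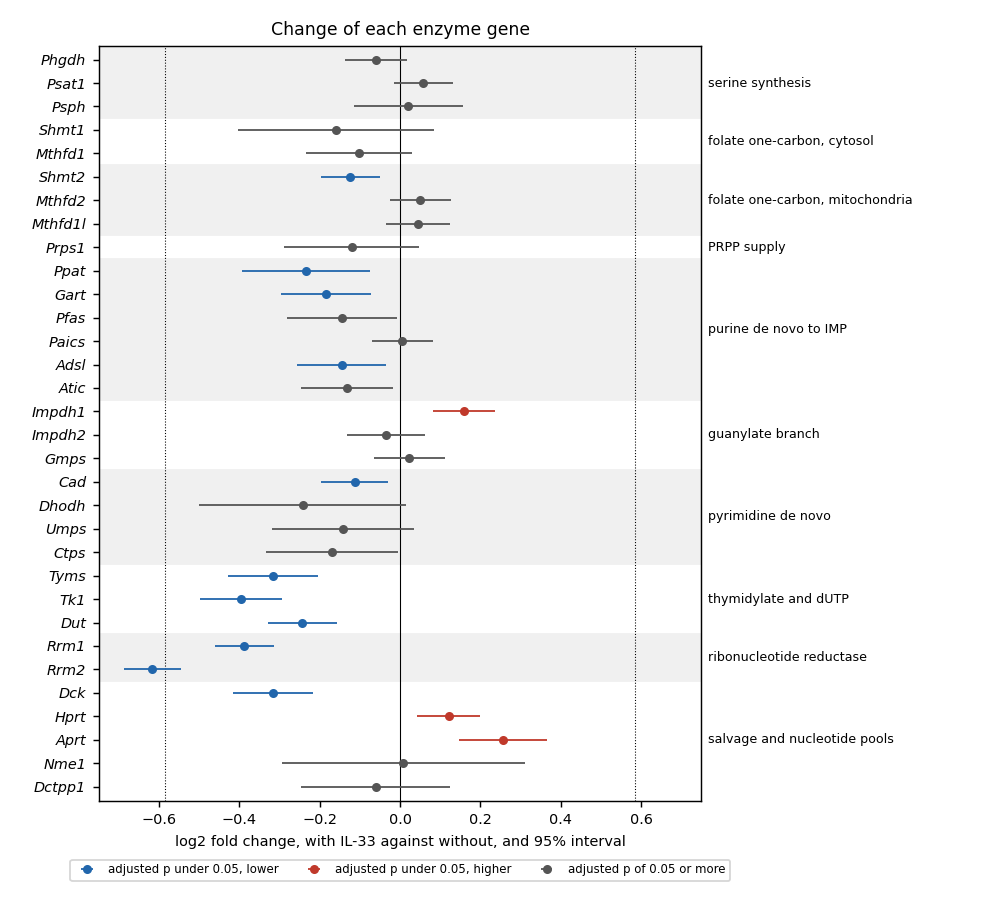
Log2 fold change of each gene, with IL-33 against without (x axis), from the edgeR fit, with its 95% interval as a bar and genes in rows grouped by role. Blue marks the 11 genes lower and red the 3 genes higher at an adjusted p under 0.05, grey marks the other 18, and dotted lines stand at a fold of 1.5. Only the estimate of Rrm2 lies past a dotted line, and its interval reaches back across it.

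Serine synthesis did not pass the test at any of its 3 steps. Phgdh, the dehydrogenase that opens the pathway and whose change was the best supported of the 3, stood at 163, 151 and 147 CPM without IL-33 and at 153, 142 and 147 CPM with it. The groups overlapped, with a log2 fold change of -0.06 (SE 0.0385, adjusted p = 0.259 by edgeR). Psat1, the transaminase of the next step, had means of 154 ± 6.08 and 160 ± 1.52 CPM (log2 fold change 0.06, 95% interval -0.02 to 0.13). Psph, the phosphatase that releases serine, had means of 32.7 ± 2.69 and 33.2 ± 1.02 CPM (0.02, -0.12 to 0.16). The pathway's summed level was 325 to 358 CPM without IL-33 and 338 to 345 CPM with it, so the libraries with IL-33 lay inside the range of the controls.

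Of the enzymes that load and interconvert carbon units on folate, 1 of 5 changed. Shmt2, the mitochondrial hydroxymethyltransferase that takes the carbon from serine (GRCm38, chr10:127517123-127522444), stood at 164, 164 and 162 CPM without IL-33 and at 153, 151 and 145 CPM with it. Every library with IL-33 was below every control, and the log2 fold change was -0.12 (SE 0.0369, adjusted p = 0.0061), although without the IL-33 library 3 the adjusted p became 0.0564. The enzymes of the following mitochondrial steps, Mthfd2 (143 ± 4.99 and 148 ± 3.05 CPM) and Mthfd1l (109 ± 2.61 and 113 ± 1.92 CPM), had log2 fold changes of 0.05 and 0.04 and passed in neither direction. In the cytosol, Mthfd1, a protein with 3 enzyme activities on folate, stood at 35.9, 35.0 and 33.8 CPM without IL-33 and at 32.5, 33.5 and 31.6 CPM with it. Its groups did not overlap either, but the difference was small beside its error (-0.10, SE 0.0666, adjusted p = 0.272). Shmt1, the cytosolic counterpart of Shmt2, had the widest error of the 5 (10.4 ± 1.16 and 9.32 ± 0.815 CPM, log2 fold change -0.16, 95% interval -0.40 to 0.09).

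Purine synthesis starts from phosphoribosyl pyrophosphate, which Prps1 makes. Prps1 stood at 21.8, 25.1 and 20.2 CPM without IL-33 and at 20.8, 20.3 and 20.5 CPM with it (log2 fold change -0.12, SE 0.0851, adjusted p = 0.315), and the groups overlapped. Of the 6 enzymes that build inosine monophosphate from it, 3 were lower and none was higher at an adjusted p under 0.05, and 5 of the 6 estimates were negative. Gart, which catalyses 3 steps of the pathway (chr16:91621186-91646952), was the clearest. It stood at 51.9, 50.5 and 51.5 CPM without IL-33 and at 45.9, 44.8 and 44.7 CPM with it. The groups were well separated, with spreads under 1 CPM in each, and the log2 fold change was -0.19 (SE 0.0564, adjusted p = 0.00741). Ppat, the amidotransferase of the committed step, was lower by edgeR (45.3 ± 3.77 and 38.5 ± 5.22 CPM, -0.24, adjusted p = 0.0236), with groups that overlapped, and the call was lost without the control library 1 or 3 or without the IL-33 library 2 or 3 (adjusted p from 0.0737 to 0.113). Adsl, the lyase that acts late in the pathway and again on the way to AMP, was lower with groups that did not overlap (54.4 ± 2.57 and 49.2 ± 2.52 CPM, -0.15, adjusted p = 0.0391), but this call was lost with DESeq2 (0.116) and without any of 4 libraries, the control 2 or 3 or the IL-33 1 or 3 (0.0501 to 0.245). Pfas, the amidotransferase after the first Gart steps (-0.14, adjusted p = 0.111), and Atic, which closes the ring (-0.13, adjusted p = 0.0798), passed in neither direction. The groups did not overlap for Atic. Without the IL-33 library 3, Pfas was called lower (adjusted p = 0.0198). Paics, the bifunctional enzyme between Gart and Adsl and the most abundant of the 6 transcripts per length, passed in neither direction (147 ± 2.63 and 148 ± 7.66 CPM, log2 fold change 0.01, 95% interval -0.07 to 0.08). The 6 genes together summed to 380 to 386 CPM without IL-33 and to 356 to 359 CPM with it.

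Ppat and Paics lie head to head on chromosome 5, with the start of Ppat in GENCODE M21 at base 76951578 on the reverse strand and that of Paics at base 76951307 on the forward strand, so that 272 bases of their exons overlap. No source used here says whether counting was by strand, and reads from those bases cannot be assigned to either gene with certainty. Their log2 fold changes of -0.24 (SE 0.0772) and 0.01 (SE 0.0382) are given side by side, since the difference between them was not tested. Their promoters, from 250 bases before the start to 50 after it in RefSeq on GRCm38.p6, are shown for this reason, at chr5:76951529-76951828 on the reverse strand for Ppat and at chr5:76951052-76951351 on the forward strand for Paics. Capitals mark matches to an E2F element (TTTCCCGC, TTTCGCGC, TTTGCCGC or TTTGGCGC), an E-box (CACGTG) or a CCAAT box (CCAAT), each searched on both strands, and the motifs share no overlapping match in these windows.
Ppat: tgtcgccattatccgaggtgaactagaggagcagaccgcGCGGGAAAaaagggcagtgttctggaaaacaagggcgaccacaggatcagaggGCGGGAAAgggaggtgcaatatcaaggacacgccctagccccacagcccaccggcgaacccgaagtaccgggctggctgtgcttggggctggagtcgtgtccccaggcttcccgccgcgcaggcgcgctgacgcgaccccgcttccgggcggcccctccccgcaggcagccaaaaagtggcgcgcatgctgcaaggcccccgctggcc
Paics: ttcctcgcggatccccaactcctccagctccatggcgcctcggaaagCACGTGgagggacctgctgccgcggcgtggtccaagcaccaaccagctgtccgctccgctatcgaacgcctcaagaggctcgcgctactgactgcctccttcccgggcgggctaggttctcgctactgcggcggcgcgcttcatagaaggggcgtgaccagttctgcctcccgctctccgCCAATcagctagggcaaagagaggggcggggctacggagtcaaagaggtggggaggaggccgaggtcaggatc
The Ppat window held 2 E2F matches, at -211 and -158 from the start, read on the strand opposite to the gene. The Paics window held an E-box at -203 and a CCAAT box at -23, and it held no E2F match.

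The branch from inosine monophosphate to guanylate held 1 gene that was higher. Impdh1, an inosine monophosphate dehydrogenase (chr6:29200434-29216364), stood at 118, 112 and 115 CPM without IL-33 and at 127, 131 and 127 CPM with it. The lowest library with IL-33 exceeded the highest control, with a log2 fold change of 0.16 (SE 0.039, adjusted p = 7.52e-04), an increase of 11.6%. Its isozyme Impdh2, the form usually linked to dividing lymphocytes, had 64.7 ± 1.7 and 63.2 ± 2.14 CPM (-0.03, 95% interval -0.13 to 0.06). Gmps, which makes guanylate from the product of both, had 77.1 ± 3.97 and 78.3 ± 4.29 CPM (0.02, -0.07 to 0.11). As a log2 ratio of their CPM, Impdh1 over Impdh2 was 0.82, 0.83 and 0.83 in the controls and 0.95, 1.09 and 1.02 with IL-33, and the groups did not overlap.

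All 4 estimates of pyrimidine synthesis were negative, and 1 of the 4 passed the test. Cad, the large protein that carries the opening activities of the pathway (chr5:31054780-31078479), stood at 98.2, 95.7 and 90.2 CPM without IL-33 and at 87.1, 91.0 and 84.6 CPM with it. The highest library with IL-33 lay just above the lowest control, and the log2 fold change was -0.11 (SE 0.0425, adjusted p = 0.0355). That call was lost with DESeq2 (adjusted p = 0.113), without the filter on low counts (0.0643) and without control library 1 or 2 or IL-33 library 1 or 3 (0.101 to 0.194). Dhodh, the mitochondrial dehydrogenase (9.92 ± 1.11 and 8.39 ± 1.45 CPM, -0.24, 95% interval -0.50 to 0.02), Umps, which makes uridylate (21.6 ± 2.42 and 19.6 ± 2.01 CPM, -0.14, -0.32 to 0.03), and Ctps, which makes cytidine triphosphate (23.6 ± 1.91 CPM without IL-33, -0.17, -0.33 to -0.01), had wider errors at lower counts. The adjusted p of Ctps was 0.118, although its unadjusted interval excluded 0.

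Ribonucleotide reductase makes deoxynucleotides from ribonucleotides, and both members that encode its dividing-cell form were lower. Rrm2, the small subunit that carries the radical needed for catalysis (chr12:24708241-24714146), stood at 226, 215 and 211 CPM without IL-33 and at 147, 137 and 141 CPM with it. The lowest control was well above the highest library with IL-33, and the log2 fold change was -0.62 (SE 0.0361, adjusted p = 1.24e-28), a decrease by 34.8%. Leaving out each library in turn gave log2 fold changes from -0.64 to -0.59. Its 95% interval of -0.69 to -0.55 included the threshold that stands for a fold of 1.5. Rrm1, the large catalytic and regulatory subunit (chr7:102441695-102469771), fell from 200.4 ± 12.4 to 153 ± 4.42 CPM without overlap (-0.39, SE 0.0373, adjusted p = 4.31e-15). Rrm2b, the alternative small subunit induced by p53 and used outside S phase, was not a member of the set and had 37.6 ± 3.08 and 40.4 ± 1.31 CPM (0.10, adjusted p = 0.237). The log2 ratio of CPM of Rrm2 over Rrm2b was 2.71, 2.52 and 2.38 in the controls and 1.89, 1.78 and 1.75 with IL-33. The groups did not overlap, and this was the largest shift among the 9 pairs with values. Per length, as TPM computed from CPM and exon length, the level of Rrm2 was 4.32 ± 0.143 times that of Rrm1 without IL-33 and 3.68 ± 0.128 times with it. This ratio depends on the length used, and with the longest transcript in place of all exons it was 2.71 and 2.31.

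The promoters of both reductase genes, which moved together, are shown from RefSeq on GRCm38.p6, both on the forward strand, at chr12:24708004-24708303 for Rrm2 and chr7:102441445-102441744 for Rrm1, with the same motifs in capitals.
Rrm2: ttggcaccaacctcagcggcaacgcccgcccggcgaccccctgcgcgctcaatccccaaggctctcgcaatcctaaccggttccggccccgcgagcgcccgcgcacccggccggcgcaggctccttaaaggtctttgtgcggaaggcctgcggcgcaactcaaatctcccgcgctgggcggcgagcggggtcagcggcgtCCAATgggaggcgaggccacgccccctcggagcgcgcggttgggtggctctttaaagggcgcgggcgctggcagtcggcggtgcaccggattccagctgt
Rrm1: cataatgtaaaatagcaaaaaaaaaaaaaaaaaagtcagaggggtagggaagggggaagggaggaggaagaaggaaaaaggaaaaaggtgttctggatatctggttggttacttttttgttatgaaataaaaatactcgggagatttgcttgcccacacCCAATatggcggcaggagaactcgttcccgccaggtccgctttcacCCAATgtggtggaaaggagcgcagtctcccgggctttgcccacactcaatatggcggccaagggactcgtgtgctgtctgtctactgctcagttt
Both windows held CCAAT boxes, 1 at -50 in Rrm2 and 2 at -91 and -45 in Rrm1. Neither window held an exact match to the E2F letters given above or to the E-box, and near matches were not searched. The base composition of the windows differed, with a GC content of 71.3% for Rrm2 and 47.0% for Rrm1. Promoters of the same length were matched for 30 of the 32 genes, not for Pfas and Dhodh. Some genes had more than 1 window. The first bases after the start were found in a GENCODE M21 transcript of a member for 25 of the 34 windows. Whether each window holds the start used in these cells was not tested. A CCAAT box occurred in 14 of the 30 (46.7%), an E-box in 5 (16.7%), an E2F match in 1 (3.33%) and an amino acid response element (TGATGNAA) in 1 (3.33%), against 42.6%, 11.6%, 4.72% and 2.8% of the 10068 tested genes with a promoter. The gene with the E2F match was Ppat, and the gene with the amino acid response element was Prps1. Among the 11 genes called lower, 3 had a CCAAT box and 1, Tyms, an E-box. A match is a description of the letters in these windows.

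Thymidylate is made by methylating deoxyuridylate with folate or by phosphorylating thymidine, and all 3 members that serve it were lower. Tk1, the cytosolic thymidine kinase of dividing cells (chr11:117815526-117826092), stood at 81.2, 70.1 and 75.3 CPM without IL-33 and at 53.0, 58.7 and 60.5 CPM with it. All libraries with IL-33 lay below all controls, and the log2 fold change was -0.40 (SE 0.0509, adjusted p = 8.61e-10), a decrease by 24.0%. Tyms, thymidylate synthase, fell from 56.1 ± 3.68 to 45.0 ± 2.62 CPM (-0.32, SE 0.0569, adjusted p = 3.23e-06). Dut, which removes dUTP and so yields the substrate of Tyms, fell from 88.4 ± 2.73 to 74.7 ± 3.05 CPM (-0.24, SE 0.0433, adjusted p = 2.52e-06). The groups did not overlap for either. Tk2, the mitochondrial thymidine kinase outside the set, had 35.4 ± 0.681 and 35.5 ± 2.23 CPM (0.00, adjusted p = 0.994), and the log2 ratio of CPM of Tk1 over Tk2 was 1.22, 0.99 and 1.06 in the controls and 0.58, 0.64 and 0.86 with IL-33, again without overlap.

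Of the 5 enzymes of salvage and nucleotide pools, 1 was lower and 2 were higher. Dck, the kinase that recovers deoxycytidine and other deoxynucleosides (chr5:88764996-88783281), stood at 68.9, 66.7 and 68.3 CPM without IL-33 and at 53.0, 56.5 and 54.4 CPM with it. The groups were far apart beside their spread, with a log2 fold change of -0.32 (SE 0.05, adjusted p = 1.27e-07). Both enzymes that recover purine bases were higher. Aprt, which recovers adenine (chr8:122574635-122576909), stood at 47.5, 52.9 and 46.5 CPM without IL-33 and at 61.8, 58.8 and 54.8 CPM with it. Its groups did not overlap, and its log2 fold change of 0.26 (SE 0.0555, adjusted p = 1.19e-04), an increase of 19.4%, was the highest of the 32. Hprt, which recovers hypoxanthine and guanine (chrX:52988137-53021659), stood at 113, 118 and 114 CPM without IL-33 and at 120.3, 129.9 and 125 CPM with it. The gap between the groups was narrow (0.12, SE 0.0396, adjusted p = 0.0139), and the call was lost without the control library 3 (0.0623) or the IL-33 library 2 (0.102). Dctpp1, which clears modified deoxycytidine triphosphate, had 17.8 ± 0.541 and 17.0 ± 1.36 CPM (-0.06, 95% interval -0.25 to 0.12). Nme1, a nucleoside diphosphate kinase, had 6.78 ± 1.47 and 6.81 ± 1.31 CPM (0.01, -0.29 to 0.31), and its values are uncertain, since 418 bases of its exons are shared on the same strand with Gm20390, an annotated gene that also shares 573 exon bases with its neighbour Nme2. Nme2 itself had 3 to 18 counts in a library and was not tested.

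**Figure D3:**
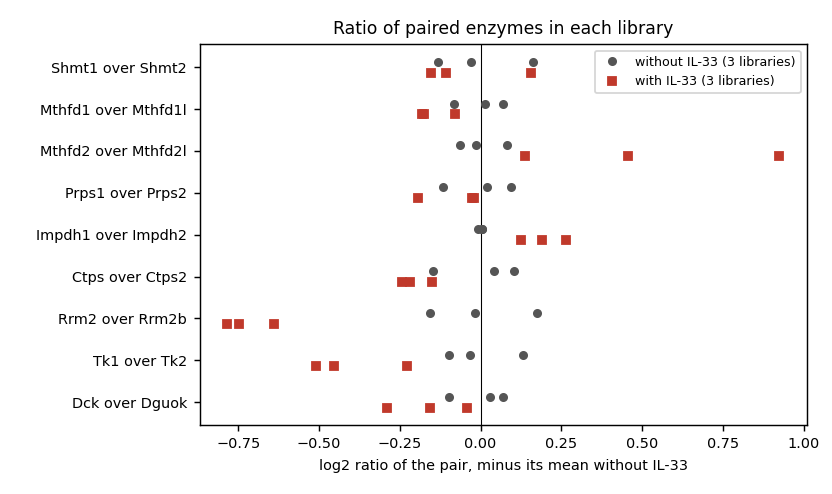
Log2 ratio of CPM of 9 pairs of related enzymes in each library, minus the mean of that ratio without IL-33 (x axis), with the first-named gene over the second. Circles are the 3 libraries without IL-33 and squares the 3 with IL-33. Squares and circles do not overlap for Rrm2 over Rrm2b, Tk1 over Tk2 and Ctps over Ctps2 (lower) or for Impdh1 over Impdh2 and Mthfd2 over Mthfd2l (higher).

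Of 10 pairs of related enzymes, 9 had values for both genes, and 5 had ratios that did not overlap between the groups. Among single genes tested, 19.5% lay wholly below the controls and 19.4% wholly above them. No such share was computed for other pairs of genes, so the count of 5 has no background of its own. Besides the 3 pairs above, Ctps over Ctps2 moved from a mean log2 ratio of -0.92 to -1.13, with the lowest control at -1.07 and the highest library with IL-33 close to it at -1.075. Mthfd2 over Mthfd2l moved from 5.35 to 5.86, with Mthfd2l at only 3.49 ± 0.174 and 2.62 ± 0.736 CPM. Shmt1 over Shmt2, Mthfd1 over Mthfd1l, Prps1 over Prps2 and Dck over Dguok overlapped. With 3 libraries against 3, an exact permutation test cannot go below 0.1, so no p is given for the ratios.

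Per length, the members spanned a wide range of levels. Hprt had the highest level without IL-33 (273.6 ± 7.04 TPM), followed by Rrm2 (240.4 ± 11.5 TPM), Phgdh (189 ± 12.7 TPM), Shmt2 (161 ± 3.27 TPM) and Paics (144 ± 4.48 TPM), and each of these steps was larger than the summed SDs of its neighbours. With IL-33, Rrm2 stood at 155 ± 5.53 TPM, below Phgdh (179 ± 7.31 TPM) and above Shmt2 (146 ± 5.38 TPM), the last of which it did not exceed by more than their summed SDs. Dut, Psat1 and Impdh1, at 112 ± 4.09, 111 ± 5.86 and 107 ± 3.49 TPM without IL-33, did not differ beyond their spread. Nor did neighbours among the 7 genes from Cad (35.5 ± 1.98 TPM) to Tyms (28.2 ± 2.09 TPM). At the low end stood Shmt1 (8.23 ± 1.03 TPM), Nme1 (6.2 ± 1.29 TPM) and Dhodh (4.81 ± 0.545 TPM). The place of Nme1 is uncertain because of the exon bases it shares with Gm20390. The order depends on the length used, and with the longest transcript in place of all exons Rrm2 ranked 1 and Hprt 2.

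**Figure D4:**
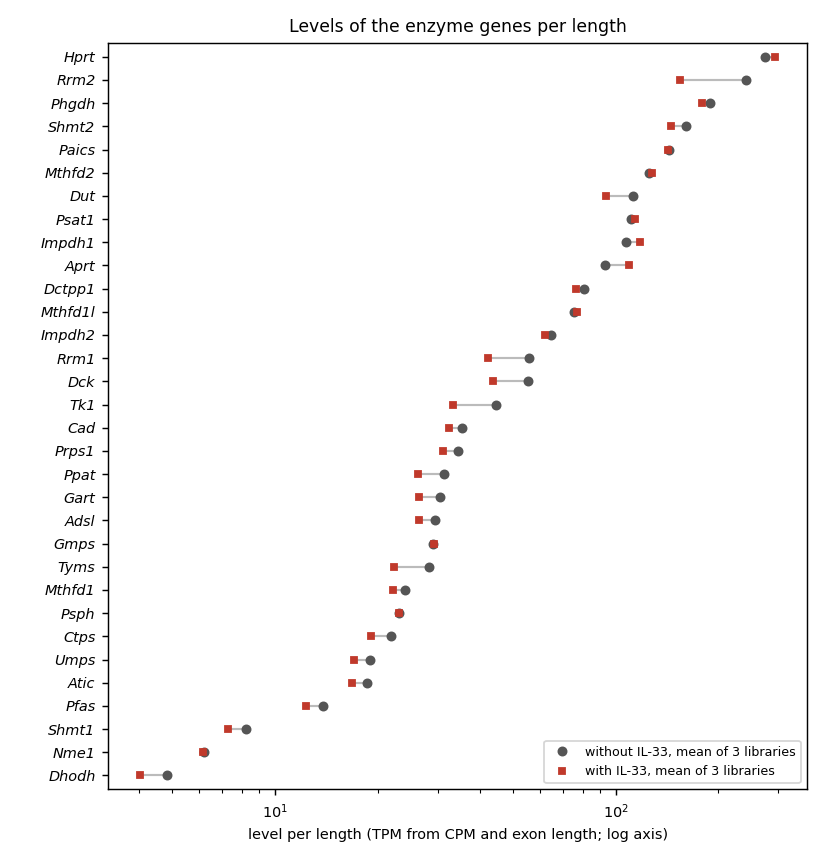
Mean level per length of each gene (x axis, TPM on a log scale) without IL-33 (circles, 3 libraries) and with IL-33 (squares, 3 libraries), with genes ordered by their level without IL-33. The largest gap between circle and square is that of Rrm2, from 240.4 to 155 TPM, and the squares of Hprt, Impdh1 and Aprt lie to the right of their circles.

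Other genes of the same pathways were counted in the same way. From a list of 80 further symbols, 67 genes were tested, of which 7 (10.4%) were lower and 9 (13.4%) were higher at an adjusted p under 0.05, with a median log2 fold change of 0.03. Over all genes tested these shares were 13.9% and 13.6%. Past a fold of 1.5, edgeR called 0 lower (2 at an unadjusted p under 0.05, 0 with DESeq2 and 1 with limma-voom) and 4 higher, where 2.39% and 2.47% of all genes tested passed. These 4 were Ak4, a mitochondrial adenylate kinase (21.6 ± 2.07 and 38.2 ± 2.64 CPM, log2 fold change 0.82, adjusted p = 2.59e-17), Adssl1, an adenylosuccinate synthase of the step from inosine monophosphate to AMP (27.8 ± 1.69 and 44.6 ± 3.6 CPM, 0.68, 2.8e-15), Gda, guanine deaminase (2.13 ± 0.116 and 3.61 ± 0.201 CPM, 0.76, 0.00403), and Ak1, a cytosolic adenylate kinase at 0.943 ± 0.0927 and 1.68 ± 0.247 CPM, whose adjusted p of 0.0487 was lost under DESeq2 (0.122), limma-voom (0.0512), no filter (0.0697), the replicate block (0.0583) and without any 1 library other than the IL-33 library 1 (0.0711 to 0.166). Of the 7 that were lower, 1 was chosen for mention after its values had been seen because it acts on thymidylate. This was Dtymk, the thymidylate kinase, which stood at 56.7, 54.3 and 52.2 CPM without IL-33 and at 45.8, 40.7 and 41.7 CPM with it (-0.35, adjusted p = 4.04e-07). Its groups did not overlap.

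Genes of DNA replication were lower as well. A list of 40 S phase genes outside the set was chosen with earlier results of these data known, so its counts are a description. Of these 40 genes, 37 (92.5%) were lower and 0 higher at an adjusted p under 0.05. Over all genes tested, 13.9% were lower and 13.6% higher. All 40 estimates were negative, with a median log2 fold change of -0.41. The summed level of the 40 genes was 2850 to 3030 CPM without IL-33 and 2200 to 2260 CPM with it. Among transcription factors known to act on such genes, E2f1 fell from 27.3 ± 0.704 to 19.96 ± 1.65 CPM (-0.45, adjusted p = 2.3e-06) and E2f2 from 40.6 ± 3.84 to 26.9 ± 1.84 CPM (-0.59, 6.9e-12), while E2f3 passed in neither direction (-0.17, 0.0652). Myc, a known activator of many nucleotide synthesis genes, stood at 53.7, 57.3 and 55.3 CPM without IL-33 and at 52.9, 52.1 and 54.4 CPM with it (-0.06, adjusted p = 0.445), with groups that overlapped. Atf4, which activates serine synthesis and mitochondrial folate genes under amino acid shortage, rose from 398 ± 6.99 to 448 ± 2.79 CPM (0.17, adjusted p = 4.76e-07). Of 12 other genes of that response, 0 were lower and 2 (16.7%) were higher, Chac1 (0.37) and Ddit3 (0.26), with a median of 0.13. The share higher was near the 13.6% of all genes tested. At an unadjusted p under 0.05, and with DESeq2 and limma-voom, the count of S phase genes higher and that of amino acid response genes lower were also 0. The part of these regulators or of the share of cells in S phase in the changes of the 32 genes was not tested.

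Exons of some other members overlap genes on the opposite strand, so that without strand a part of their reads may belong to the partner. These are Gart with the antisense gene Gm15964 (1014 bases), Psph with Cct6a (452), Umps with Gm15829 (213), Shmt1 with Smcr8 (184), Tk1 with Afmid (83), Impdh2 with Ndufaf3 (48), Mthfd1 with Gm47525 (37) and Shmt2 with Ndufa4l2 (32).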

How the data were processed

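RNA of 6 DNT cell libraries, 3 without and 3 with IL-33, was compared. The deposited values were read counts per gene in each library, not normalized by the authors. The authors also deposited a signal column, a mean over the libraries after scaling, which was not used. The submitters' processing notes name Bowtie 0.12.2 and mm8 without their role. The sources used here do not give the counting program, its annotation or its strand setting. The labels name the TruSeq kit and the study's methods the NEBNext Ultra kit. Of 26128 Ensembl identifiers, 26086 matched GENCODE M21 (GRCm38), the source of symbols, positions and exon lengths, and promoters came from RefSeq (GRCm38.p6).

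Low genes were removed by filterByExpr of edgeR (count of at least 10, total of at least 15), which left out 0.11% of all counts. The other genes were scaled by TMM (factors from 0.9927 to 1.008) and compared with the quasi-likelihood test (robust glmQLFit and glmQLFTest, two-sided, no covariates), with Benjamini-Hochberg adjustment over the 14671 genes tested. The biological coefficient of variation was 0.0468. The study's methods give the thresholds, an adjusted p under 0.05 and a log2 fold change of 0.585 or more in size. Means and SDs are of CPM. The fits used edgeR 4.0.16, DESeq2 1.42.0 and limma 3.58.1 in R 4.3.3. The totals of 20256342 to 22336050 counts per library give precise values for most members, and SEs were largest for Nme1, Dhodh and Shmt1. The fit was tested on simulated data.

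The members and the lists of other pathway genes, pairs, S phase genes, amino acid response genes, regulators, cell type markers and motifs were chosen with earlier results of these data known. Values of every library are given for members past both thresholds, members that rose, and the member of each role with the lowest p. All members, their pair partners, regulators, and other pathway genes past both thresholds are named. Alternatives were DESeq2, limma-voom, edgeR with DESeq2's size factors, no filter, a filter of 1 CPM in every library of a group, the replicate number as a block, a test against the fold of 1.5, each library left out in turn, and the longest transcript as length. Replicate pairs within a group differed by more than counting noise (chi-square per gene from 2.64 to 3.67), so none was counted as a library deposited again. Some genes of the lists are not reported here.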

Additional observations from a re-analysis of the deposited data

How the results depend on the processing

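Of the 32 genes, 26 kept their call, or the lack of one, in all 12 alternatives of the test. Estimates near 0 changed sign in 4 of these, none of them called in any setting, with ranges over the libraries left out of -0.0174 to 0.09 for Psph, -0.0134 to 0.066 for Gmps, -0.0321 to 0.0437 for Paics and -0.15 to 0.15 for Nme1. The same held for the pair partners Prps2 (-0.0909 to 0.0039) and Tk2 (-0.0436 to 0.0478), the latter also with limma-voom (-0.002) and the replicate block (-0.0002). The number lower stayed between 8 and 11, the number higher between 2 and 3, and the median log2 fold change between -0.13 and -0.09. The calls that changed were those of Adsl, Cad, Ppat, Hprt, Shmt2 and Pfas, given with the libraries concerned beside their values. Rrm2 was the only gene past both thresholds, and when the test was made against the fold of 1.5 itself, 0 genes passed. Of the other pathway genes, DESeq2 called 4 lower and 5 higher, and leaving out each library in turn gave 4 to 8 lower and 5 to 9 higher, with the lowest of both counts, 4 and 5, without the IL-33 library 3. With the longest transcript as length, the ratios of levels without IL-33 moved to 2.71 for Rrm2 over Rrm1 (from 4.32), 12.1 for Rrm2 over Rrm2b (from 19.2), 1.27 for Impdh1 over Impdh2 (from 1.66) and 2.06 for Tk1 over Tk2 (from 1.47), while Shmt2 over Shmt1 kept 19.7. Fitted with a replicate block, the model called 10 of the 32 genes lower and 3 higher, with Adsl at an adjusted p of 0.0641, and of the other pathway genes 7 lower and 6 higher, with Ak1 at 0.0583. The deviations of same-numbered samples correlated at 0.0116, 0.00317 and 0.0107, all under 0.1. Each sample correlated best with its own number, which is a hint from the data and not the design. Values this small do not settle whether the samples were paired, and the sources used here do not say. Precision limited the low members most, with SEs up to 0.152 for Nme1.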
